A study of Gallus gallus with 8 samples.

Results

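The hearts of Linzhi Tibetan chicken embryos were compared with those of 3 other breeds by messenger RNA sequencing. Both libraries labelled Linzhi Tibetan, of 8 in the series, formed the group under study. The other 6 libraries were 2 each of Lhasa White, Chahua and White Leghorn, the last of which the labels spell White leghom. All hearts came from embryos at 16 days of incubation. No treatment, transgene or altitude is among the labels used here, and nothing in them tells if a breed's 2 libraries are separate embryos. P-values therefore reflect how far these libraries differ, some of which may be technical. The title of the series puts the question as adaptation of Tibetan chickens to low oxygen and strong ultraviolet light.

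Several gene systems bear on such a comparison. Chaperones of the HSP70, HSP90 and chaperonin families fold new proteins and are induced by protein damage, and HSP90 also holds many signalling proteins in a form that can be activated. In heart muscle each beat depends on calcium that is stored in the sarcoplasmic reticulum by calsequestrin, released, and pumped back by the SERCA pump. Low oxygen stabilises HIF transcription factors, which raise genes for glycolysis and vessel growth. In birds females carry a Z and a W chromosome and males carry a pair of Z chromosomes. Because birds compensate the dose of Z-linked genes only in part, many Z-linked transcripts go with the W status of a heart.

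The deposited values were RPKM, read numbers scaled to gene length and library size. Library totals recovered from the values ran from 17245669 to 22157553 mapped reads, and the median tested gene held 356 to 493 reads per library. Linzhi Tibetan 1 had 92.51% of its mapped reads in the listed genes, against 95.38% to 96.29% in the other 7 libraries, and the part of this in the results was not tested. The muscle identity of the tissue was plain in its transcripts. TNNT2, cardiac troponin T, lay at 8848 and 7746 RPKM in the Linzhi Tibetan hearts and at 5502 to 7346 RPKM in the others. Atrial transcripts were highest in Lhasa White 2. Over the 11 atrial markers tested, the mean deviation from the average of all 8 libraries was -0.26 and -0.36 on the log2 scale in Linzhi Tibetan hearts, against 1.78 in Lhasa White 2 and 0.30 in Chahua 2. The other 4 libraries lay between -0.43 and -0.26. By the median of the 11 the order differed, with -0.05 and -0.02 in Linzhi Tibetan hearts, against 0.87 in Lhasa White 2, -0.13 in Chahua 2 and -0.18 to -0.13 in the other 4. The summed level was 3104.5 and 3313 RPKM in Linzhi Tibetan hearts, against 4345 in Lhasa White 2, 3003 in Chahua 2 and 1898 to 2713 in the other 4. Most of each Linzhi Tibetan sum came from 1 of the 11 markers, NPPA, described below. The part of atrial tissue in the results was not tested, and several counts are also given without Lhasa White 2 and Chahua 2, the libraries with the highest mean deviations.

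W-linked transcripts were near 0 in both Linzhi Tibetan hearts. ATP5A1W, the W copy of an ATP synthase subunit gene, lay at 0.0774 and 0.355 RPKM in the Linzhi Tibetan pair. It lay at 4.02 in Lhasa White 1 and 0.241 in White Leghorn 2, but at 398 RPKM in Lhasa White 2, 445 and 496 in the Chahua pair and 409 in White Leghorn 1. HINTW, the W copy of a nucleotide-binding protein gene, and SPINW followed the same split, with at most 0.304 RPKM in any Linzhi Tibetan library. Within the Lhasa White pair and within the White Leghorn pair the libraries differed in W status. Neither of these pairs is therefore a single embryo sequenced again, and that difference enters the spread within breeds. Lhasa White 1 and White Leghorn 2 are thus the libraries of other breeds that match the Linzhi Tibetan hearts in W status, and several results are also given against them alone. They are matched in W status only. Since they are of different breeds, their breed difference enters the standard errors of that contrast.

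No gene differed past an adjusted p of 0.05 between Linzhi Tibetan and the mean of the 3 other breeds. Of 11556 genes tested by limma on log2(RPKM + 1), 0 were called higher (0%) and 0 lower (0%). At an unadjusted p below 0.05, 398 genes were higher (3.44%) and 468 lower (4.05%). The contrasts with Lhasa White, Chahua and White Leghorn alone, and with Lhasa White 1 and White Leghorn 2, also gave 0 calls in each direction. A fit with 2 groups of 2 and 6 libraries called 1 gene, and so did voom with limma on the recovered whole reads. Single genes are therefore described by their values and by whether both Linzhi Tibetan libraries lay outside the range of the other 6. That separation held upward for 495 genes (4.28%) and downward for 724 (6.27%), and the counts of each gene group are read against these shares. With fewer libraries both shares grow. The upward share was 14.0% without Linzhi Tibetan 1, 12.3% without Linzhi Tibetan 2, 5.61% without Lhasa White 2, 10% without Chahua 2 and 14.2% without Lhasa White 2 and Chahua 2. The downward share was 15.6% without Linzhi Tibetan 1, 18.6% without Linzhi Tibetan 2, 7.03% without Lhasa White 2, 9.67% without Chahua 2 and 11.7% without Lhasa White 2 and Chahua 2. There are 28 ways to pick 2 of 8 libraries. An exact permutation test of 1 gene that doubles 1 tail therefore cannot go below a two-sided p of 0.0714.

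Chaperone transcripts were the group with the most members below the other breeds among the stress and metabolic lists. Of 61 listed genes 51 were tested, and 39 of these were lower and 12 higher, with a median log2 difference of -0.17 against -0.02 over all genes. Both Linzhi Tibetan libraries lay below all 6 others for 14 of the 51 (27.5%, against 6.27% of all genes) and above them for 3 (5.88%, against 4.28%). The count of 3 was 2 after median ratio scaling (574 of all 11556 genes) and 1 after quantile normalization (617 of 11556). The count below was 14 after median ratio scaling (747 of 11556) and 17 after quantile normalization (683 of 11556). The median kept its sign under all 18 alternatives, between -0.18 and -0.12. The list mean deviated by -0.10 and -0.13 in Linzhi Tibetan hearts and by -0.03 to 0.12 in the others. The sums overlapped, with 5333 and 5290.5 RPKM in Linzhi Tibetan hearts and 5112 (Chahua 2) to 5687 RPKM in the others. The count below the others was 22 of 51 (43.1%, against 11.7% of all genes) when Lhasa White 2 and Chahua 2 were both left out. It was also 22 without Linzhi Tibetan 1 (43.1%, against 15.6% of all genes), 21 without Linzhi Tibetan 2 (41.2%, against 18.6%) and 22 without Chahua 2 alone (43.1%, against 9.67%).

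HSPA8, the constitutive HSP70 of the cytosol, lay at 92.5 and 88.9 RPKM in the Linzhi Tibetan hearts, against 143 to 201 RPKM (median 167) in the 6 others. Its log2 difference was -0.87 ± 0.11 (limma, adjusted p = 0.28). HSP90AA1, the inducible cytosolic HSP90, lay at 87.2 and 63.2 RPKM in Linzhi Tibetan, against 137 to 229.6 RPKM (median 182), a difference of -1.26 ± 0.16 (limma, adjusted p = 0.28). For both genes the Linzhi Tibetan pair was lowest, with a wide gap to the next library. SERPINH1, the collagen chaperone HSP47, lay at 102 and 72.0 RPKM in Linzhi Tibetan hearts and at 120.4 to 218 RPKM (median 144) in the others (-0.80 ± 0.17). DNAJA1, an HSP40 partner of HSPA8, lay at 26.1 and 23.4 RPKM in Linzhi Tibetan hearts and at 28.8 to 43.5 RPKM (median 33.2) in the others (-0.48 ± 0.11). DNAJA1 is Z-linked, and its difference ran against that of most Z-linked genes described below.

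**Figure D1:**
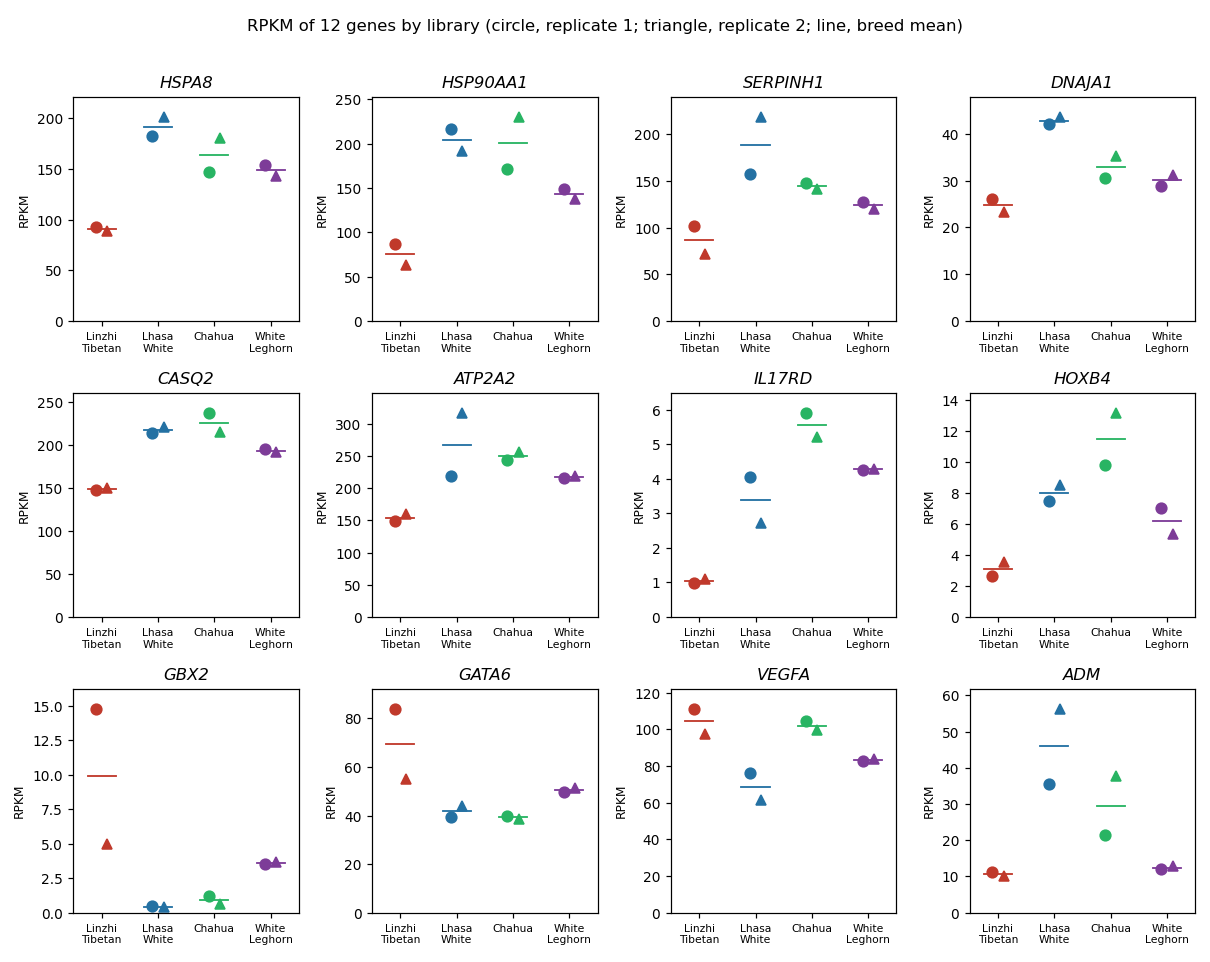
RPKM of 12 genes in each of the 8 libraries, by breed from Linzhi Tibetan on the left (circle, replicate 1; triangle, replicate 2; short line, mean of the pair), each on its own axis from 0. HSPA8, HSP90AA1, SERPINH1, DNAJA1, CASQ2, ATP2A2, IL17RD, HOXB4 and ADM lie lowest in both Linzhi Tibetan hearts, GBX2 and GATA6 lie highest in both, and for VEGFA the pair lies on either side of the Chahua pair.

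The other chaperones below all 6 libraries belong to several folding machines. There are 4 subunits of the cytosolic chaperonin among them, CCT2, CCT5, CCT8 and TCP1. CCT5 lay at 37.8 and 42.5 RPKM in Linzhi Tibetan hearts and 46.2 to 53.6 RPKM in the others, a smaller difference of -0.34 ± 0.10. HSPD1, the chaperonin HSP60 of mitochondria, lay at 160.0 and 212 RPKM in Linzhi Tibetan hearts and 229 to 276 RPKM in the others (-0.44 ± 0.13). HSPH1, which exchanges the nucleotide of HSP70, lay at 2.59 and 3.26 RPKM in Linzhi Tibetan hearts and 3.59 to 5.59 RPKM in the others (-0.49 ± 0.17). FKBP4, an HSP90 partner, DNAJA4, SDF2L1 and HSPA4L completed the 14. The 3 above all others were HSPB3, CHORDC1 and CALR. CALR, a calcium-binding chaperone of the endoplasmic reticulum, lay at 679 and 563 RPKM in Linzhi Tibetan hearts and 417 to 559.9 RPKM in the others (0.31 ± 0.14). HSPB3 is Z-linked, and at 194 and 189 RPKM it stood only just above the 188 RPKM of Lhasa White 1.

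Against Lhasa White 1 and White Leghorn 2 alone the chaperone list had a median of -0.15, with 39 of 51 genes lower. Both Linzhi Tibetan libraries lay below both of these for 27 of the 51, against 23.0% of all genes. HSPA8 differed by -0.83 ± 0.15 and HSP90AA1 by -1.21 ± 0.28 in this matched set (limma, adjusted p = 0.44 for each). Set against single breeds, HSP90AA1 differed by -1.45 ± 0.20 from Lhasa White, -1.41 ± 0.20 from Chahua and -0.94 ± 0.20 from White Leghorn. HSPA8 differed by -1.07 ± 0.14 from Lhasa White, -0.84 ± 0.14 from Chahua and -0.71 ± 0.14 from White Leghorn. These contrasts share the Linzhi Tibetan libraries. HSPA8 and HSP90AA1 also stand among 7 rows at the head of the deposited table that are out of identifier order, for a reason not given in the sources used here.

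**Figure D2:**
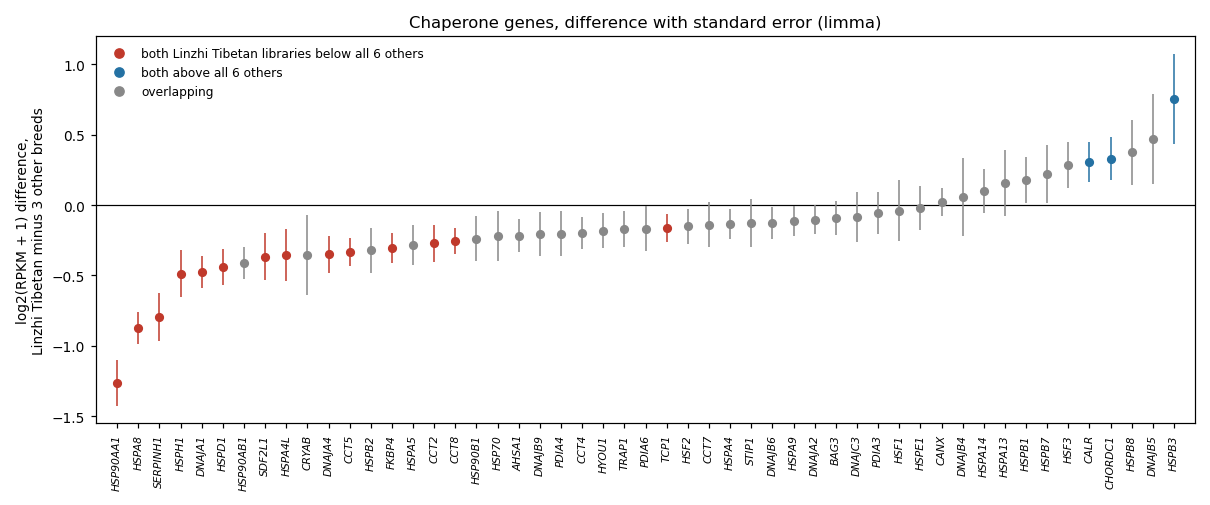
Log2(RPKM + 1) difference of Linzhi Tibetan minus the mean of the 3 other breeds, with its standard error from limma, for the 51 chaperone genes tested, ordered from lowest to highest. Genes for which both Linzhi Tibetan libraries lay below all 6 others (14) or above all of them (3) are coloured; none passed an adjusted p of 0.05.

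Calcium handling as a list did not lean either way. Of 22 genes tested 11 were higher and 11 lower (median -0.01), and the sign of the median turned in 7 of 18 alternatives. No gene of the list lay above all 6 libraries, and 2 lay below (9.09%, against 6.27% of all genes). Without Chahua 2, 4 lay above (18.2%, against 10%) and 4 below (18.2%, against 9.67%). Without Lhasa White 2 and Chahua 2, 5 lay above (22.7%, against 14.2%) and 6 below (27.3%, against 11.7%). The 2 below all 6 were CASQ2 and ATP2A2. CASQ2, the cardiac calsequestrin that buffers calcium inside the sarcoplasmic reticulum, lay at 148 and 149.5 RPKM in Linzhi Tibetan, against 191 to 237 RPKM (median 214), a difference of -0.50 ± 0.09 (limma, adjusted p = 0.55). ATP2A2, the SERCA pump that refills the store, lay at 148 and 160.2 RPKM in Linzhi Tibetan, against 216 to 317 RPKM (median 232), a difference of -0.65 ± 0.15. The Linzhi Tibetan pairs were close together, and the other 6 libraries began well above them. Against Lhasa White 1 and White Leghorn 2 the differences were -0.44 ± 0.11 and -0.50 ± 0.10. The sarcomere list had 16 genes higher and 18 lower of 34. TNNT2, given above, lay above all 6 others (0.36 ± 0.16), though no gene of the list did after median ratio scaling. ACTA1, the skeletal type actin expressed in the embryonic heart, lay at 768 and 1454 RPKM in Linzhi Tibetan hearts and 1370.0 to 2026 RPKM in the others, so that the second Linzhi Tibetan heart overlapped them. NPPA, the natriuretic peptide gene, is 1 of the atrial markers above. It lay at 2479.9 and 2717 RPKM in Linzhi Tibetan hearts and 1286 to 2419 RPKM in the others (0.51 ± 0.15), above every other library. After quantile normalization no gene of the atrial list lay above all 6 others.

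IL17RD, a membrane inhibitor of FGF signalling also called SEF, had the smallest p of the genes with a symbol that were lower. It lay at 0.993 and 1.10 RPKM in Linzhi Tibetan, against 2.71 to 5.90 RPKM (median 4.27) in the 6 others (-1.37 ± 0.17; limma, adjusted p = 0.28). Both Linzhi Tibetan values lay far below the lowest other library, Lhasa White 2. The matched contrast with Lhasa White 1 and White Leghorn 2 gave -1.34 ± 0.15. The FGF feedback list around it had 6 genes higher and 12 lower of 18, with 2 below all 6 libraries (11.1%, against 6.27% of all genes). The other of the 2 was FGF10, a ligand of that pathway.

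HOXB4, a homeobox factor of the hindbrain and blood progenitors, lay at 2.62 and 3.55 RPKM in Linzhi Tibetan hearts and 5.32 to 13.1 RPKM (median 7.99) in the others (-1.19 ± 0.18). VASH2, a vasohibin that removes tyrosine from tubulin, lay at 8.95 and 10.5 RPKM in Linzhi Tibetan hearts and 13.3 to 23.6 RPKM in the others (-0.87 ± 0.15). HOMER3, a scaffold of calcium signalling proteins, lay at 10.9 and 11.9 RPKM in Linzhi Tibetan hearts and 16.3 to 19.3 RPKM in the others (-0.60 ± 0.11). Each Linzhi Tibetan pair lay below the lowest other library, with an adjusted p of 0.55 by limma. KLHL23, of the kelch family of ubiquitin ligase adaptors, lay at 2.15 and 2.02 RPKM in Linzhi Tibetan hearts and 3.31 to 8.25 RPKM in the others (-0.88 ± 0.16). CCLI5, a chicken chemokine, lay at 7.34 and 7.01 RPKM in Linzhi Tibetan hearts and 8.73 to 21.5 RPKM in the others (-0.80 ± 0.15). RSFR lay at 3.86 and 3.18 RPKM in Linzhi Tibetan hearts and 5.05 to 14.6 RPKM in the others (adjusted p = 0.55 by limma). For KLHL23 and CCLI5 the White Leghorn pair was highest, whereas for RSFR it was the Lhasa White pair.

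Among the 10 named genes that were higher, GBX2 had the widest log2 difference. GBX2, a homeobox factor of brain and neural crest patterning, lay at 14.8 and 4.99 RPKM in Linzhi Tibetan, against 0.387 to 3.67 RPKM (median 0.914) in the others (2.07 ± 0.35; limma, adjusted p = 0.55). Linzhi Tibetan 2 was closer to the White Leghorn pair, at 3.49 and 3.67 RPKM, than to Linzhi Tibetan 1. GBX2 held 163 and 60 reads in Linzhi Tibetan and 4 to 39 in the others. PNRC1, a nuclear receptor coactivator, lay at 642 and 475 RPKM in Linzhi Tibetan hearts and 274 to 397 RPKM in the others (0.69 ± 0.15). KLF10, a zinc finger factor induced by TGF-beta, lay at 41.0 and 41.8 RPKM in Linzhi Tibetan hearts and 19.2 to 31.7 RPKM in the others (0.61 ± 0.13). ACAP2, which inactivates the ARF6 GTPase, lay at 39.99 and 22.5 RPKM in Linzhi Tibetan hearts and 11.2 to 17.1 RPKM in the others (1.12 ± 0.22). These last 3 are well expressed genes in which no other library reached the lower Linzhi Tibetan value.

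HHLA2, a B7 family ligand of T cells, lay at 12.7 and 19.7 RPKM in Linzhi Tibetan hearts and 4.30 to 11.9 RPKM in the others, the White Leghorn pair being nearest (1.08 ± 0.20). DMC1, the recombinase of meiosis, lay at 4.35 and 3.38 RPKM in Linzhi Tibetan hearts and 0.663 to 2.64 RPKM in the others (1.06 ± 0.20). Of the 10 named genes, 3 passed the filter on low values through the Linzhi Tibetan libraries alone, so that their separation was built in. They are HSD3B7, a bile acid synthesis enzyme (2.36 and 2.31 RPKM, against 0.459 to 0.914 RPKM), RSPH1, a radial spoke protein of cilia (1.19 and 2.34, against 0 to 0.201 RPKM), and gga-let-7a-1. The precursor row gga-let-7a-1 had recovered reads of 1 and 2 in Linzhi Tibetan, the fewest that its values allow, and 0 in the others. The row gga-mir-1b, a precursor of the muscle microRNA miR-1, lay at 31.5 and 33.1 RPKM in Linzhi Tibetan hearts and 14.3 to 24.8 RPKM in the others (0.72 ± 0.12), on 41 and 47 reads in Linzhi Tibetan. Such rows of an mRNA library do not measure the mature microRNA.

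A gene without a symbol, ENSGALG00000027839, had the smallest p of all genes tested, and it was chosen after its values were seen. It lay at 3.59 and 3.03 RPKM in Linzhi Tibetan, against 0.0244 to 0.174 RPKM (median 0.0535) in the others, on 149 and 137 reads against 1 to 7. The ratio of the means was 48.8, and the log2 difference, which the pseudocount shrinks for low genes, was 2.01 ± 0.20 (limma, adjusted p = 0.19). It also passed the filter through the Linzhi Tibetan libraries alone. It was the gene called by the fit with 2 groups (adjusted p = 0.019) and by voom with limma on recovered reads (adjusted p = 0.026). Over all alternatives its adjusted p ran from 0.005 to 0.99. Its difference from Lhasa White 1 and White Leghorn 2 was 2.05 ± 0.17, a separation that the filter built in as well.

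Cytosolic ribosomal protein genes were higher almost throughout. Of 85 listed genes 63 were tested, of which 61 were higher and 2 lower, with a median log2 difference of 0.21 against -0.02 over all genes. Both Linzhi Tibetan libraries lay above all 6 others for 26 (41.3%, against 4.28% of all genes) and below them for none. The median stayed between 0.11 and 0.24 under 18 alternatives, but the count of 26 depended on scaling. It was 7 of 63 after quantile normalization, against 617 of all 11556 genes, and 1 gene of the list then lay below all others. After median ratio scaling it was 34, against 574 of all 11556 genes. It was 39 without Linzhi Tibetan 2 (61.9%, against 12.3% of all genes) and 41 without Chahua 2 (65.1%, against 10%). Without Lhasa White 2 and Chahua 2 it was 42 (66.7%, against 14.2% of all genes). RPL39, of the large subunit, lay at 1892 and 1674 RPKM in Linzhi Tibetan hearts and 1119.6 to 1565 RPKM (median 1266) in the others (0.47 ± 0.13). RPS26, of the small subunit, lay at 564 and 507 RPKM in Linzhi Tibetan hearts and 367 to 437 RPKM (median 411) in the others (0.39 ± 0.11). Ribosomal protein genes have near-identical pseudogene copies, and how the authors counted reads that match several places is not given in the sources used here. Against Lhasa White 1 and White Leghorn 2 the median was 0.22, with 61 of 63 higher and 52 above both, against 21.0% of all genes.

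Mitochondrial ribosomal proteins, made in the cytosol for the mitochondrial ribosome, had 45 of 57 genes higher with a median of 0.10. For 12 of the 57 (21.1%, against 4.28% of all genes) the Linzhi Tibetan pair lay above all others, and for none below. This rested in part on Linzhi Tibetan 2. Without it the median was -0.01, with 17 genes above (29.8%, against 12.3% of all genes) and 8 below (14.0%, against 18.6%). Without Linzhi Tibetan 1 the count above was 26 (45.6%, against 14.0%). MRPL18 lay at 111 and 119.9 RPKM in Linzhi Tibetan hearts and 77.6 to 99.0 RPKM in the others (0.34 ± 0.10). Translation factors had 22 of 33 genes higher (median 0.08), 4 of them above all 6 libraries (12.1%, against 4.28% of all genes). The 4 became 14 without Linzhi Tibetan 2 (42.4%, against 12.3% of all genes), 9 without Chahua 2 (27.3%, against 10%) and 10 without Lhasa White 2 and Chahua 2 (30.3%, against 14.2%). In the contrast with Lhasa White 1 and White Leghorn 2, 18 translation factors were higher and 15 lower, with a median of 0.01. Their list mean deviated by -0.003 and -0.071 in Linzhi Tibetan hearts, inside the -0.086 to 0.105 of the others. The summed level was 6957 and 6314 RPKM in Linzhi Tibetan hearts and 6030 to 6411 RPKM in the others, so Linzhi Tibetan 2 overlapped them. Subunits of the respiratory chain encoded in the nucleus did not follow, with 22 of 55 higher, 33 lower and none outside the range of the others in either direction. Their mean deviation was -0.16 in Linzhi Tibetan 1 and 0.17 in Linzhi Tibetan 2, so the pair itself was split.

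**Figure D3:**
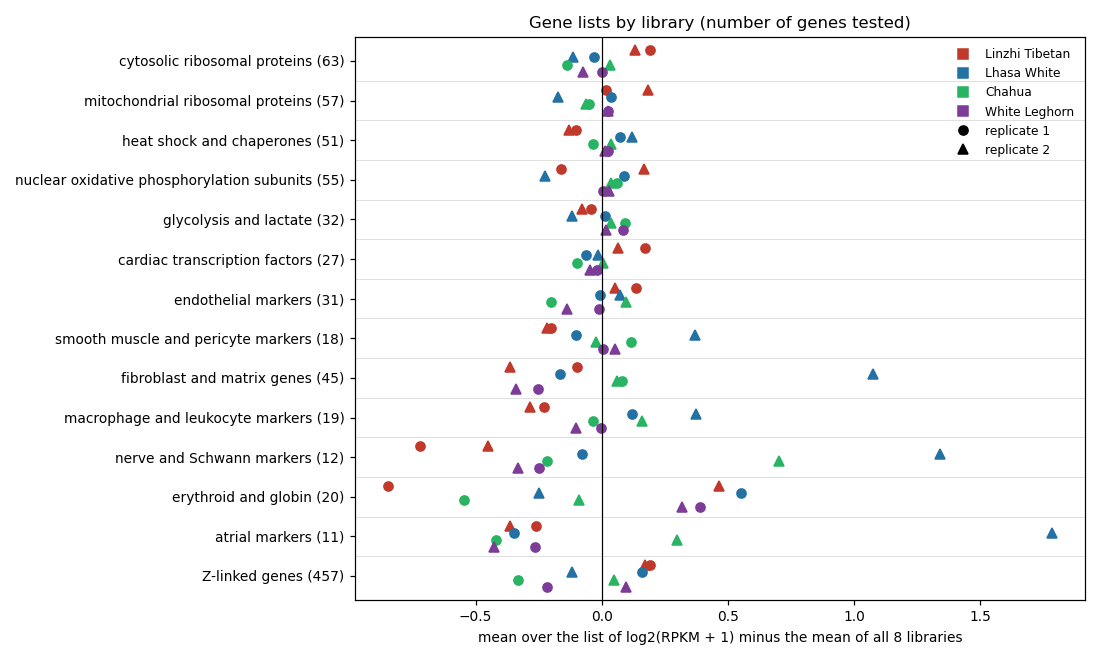
Mean over each of 14 gene lists of the log2(RPKM + 1) value minus that gene's mean over all 8 libraries, by library (colour, breed, Linzhi Tibetan uppermost within a list; circle, replicate 1; triangle, replicate 2; in brackets, genes tested). Cytosolic ribosomal proteins lie to the right and chaperones and macrophage markers to the left in both Linzhi Tibetan hearts, whereas erythroid genes and respiratory chain subunits lie on opposite sides in the 2 of them.

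The genes that sense oxygen overlapped between the Linzhi Tibetan and the other hearts. EPAS1, the HIF-2 alpha subunit, lay at 43.5 and 51.3 RPKM in Linzhi Tibetan hearts and 39.4 to 59.8 RPKM in the others (-0.15 ± 0.16). HIF1A lay at 15.03 and 12.4 RPKM in Linzhi Tibetan hearts and 9.96 to 18.1 RPKM in the others (0.02 ± 0.23), and EGLN1, the prolyl hydroxylase that marks HIF for destruction, at 23.4 and 20.2 RPKM in Linzhi Tibetan, against 17.6 to 26.1 RPKM (0.08 ± 0.13) in the others. For these 3 genes the adjusted p by limma was 0.84, 0.99 and 0.88, which does not show that the levels are equal. The signs for HIF1A and EGLN1 turned when single libraries were left out. Of 15 tested genes of the pathway 8 were higher and 7 lower. None lay above all 6 libraries and 1 below (6.67%, against 6.27% of all genes), a share near that of all genes. The one below was HSP90AA1, which also chaperones HIF-1 alpha and is counted with the chaperones above.

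Genes that low oxygen is known to induce had 24 members higher and 17 lower of 41 (median 0.05). Of the 41, 2 lay above and 4 below all 6 libraries (4.88% and 9.76%, against 4.28% and 6.27% of all genes). The 2 above became 9 without Linzhi Tibetan 2 (22.0%, against 12.3% of all genes) and 5 without Lhasa White 2 (12.2%, against 5.61%). They became 4 without Chahua 2 (9.76%, against 10%) and 7 without Lhasa White 2 and Chahua 2 (17.1%, against 14.2%). The 4 below became 8 without Linzhi Tibetan 1 (19.5%, against 15.6%), and the sign of the median turned there. ADM, the vasodilator adrenomedullin, lay at 11.2 and 10.1 RPKM in Linzhi Tibetan, against 12.01 to 56.3 RPKM (median 28.5) in the others (-1.18 ± 0.24; limma, adjusted p = 0.56). The White Leghorn pair, at 12.01 and 12.9 RPKM, was close to Linzhi Tibetan, and the distance came from Lhasa White at 35.6 and 56.3 and Chahua at 21.3 and 37.7. EDN1, the vasoconstrictor endothelin, lay at 8.43 and 7.72 RPKM in Linzhi Tibetan hearts and 3.48 to 7.83 RPKM in the others (0.49 ± 0.17), with Chahua 2 inside the pair. VEGFA, the main growth signal of vessels, lay at 111 and 97.6 RPKM in Linzhi Tibetan, against 76.0 and 61.6 in the Lhasa White pair, 105 and 99.4 in the Chahua pair and 82.7 and 84.0 in the White Leghorn pair (0.32 ± 0.12). Linzhi Tibetan and Chahua thus overlapped, and both lay above the other 2 breeds. The separate list of VEGF and TIE signalling genes had 9 of 12 higher and 3 lower (median 0.17). Of the 12, 2 lay above all 6 libraries (16.7%, against 4.28%) and 1 below (8.33%, against 6.27%). Without Lhasa White 2 and Chahua 2, 3 lay above (25%, against 14.2%) and 1 below (8.33%, against 11.7%). VEGFC, the growth signal of lymphatic vessels, lay at 4.05 and 3.40 RPKM in Linzhi Tibetan hearts and 2.25 to 2.99 RPKM in the others (0.39 ± 0.16). FLT4, the receptor of VEGFC, lay at 9.52 and 9.29 RPKM in Linzhi Tibetan hearts and 6.08 to 9.21 RPKM in the others (0.31 ± 0.12). The coreceptor NRP2 was lower, at 11.6 and 12.6 RPKM in Linzhi Tibetan hearts and 13.7 to 23.5 RPKM in the others (-0.40 ± 0.17).

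Endothelial markers had 24 genes higher and 7 lower of 31, with a median of 0.10 that kept its sign in 18 alternatives. For 4 (12.9%, against 4.28%) the Linzhi Tibetan pair lay above all others, which became 8 without Linzhi Tibetan 2 (25.8%, against 12.3%), 7 without Chahua 2 (22.6%, against 10%), and 8 (25.8%, against 14.2%) without Lhasa White 2 and Chahua 2. The 4 were ESAM, SOX18, EMCN and FLT4. ESAM, an adhesion protein of endothelial junctions, lay at 77.7 and 83.3 RPKM in Linzhi Tibetan hearts and 49.8 to 68.9 RPKM in the others (0.43 ± 0.11). SOX18, a transcription factor of vessels, lay at 41.7 and 44.1 RPKM in Linzhi Tibetan hearts and 22.4 to 35.4 RPKM in the others (0.56 ± 0.19). PECAM1, the pan-endothelial adhesion molecule, lay at 143 and 95.6 RPKM in Linzhi Tibetan, but Chahua 2 at 138 RPKM lay between the pair. The endothelial list mean deviated by 0.14 and 0.05 in Linzhi Tibetan hearts, against 0.07 in Lhasa White 2, 0.10 in Chahua 2 and -0.20 to -0.01 in the rest. The summed level was 1292 and 1215 RPKM in Linzhi Tibetan hearts and 1045 to 1270 RPKM in the others. Linzhi Tibetan 2 thus overlapped the other hearts by both measures. In whole hearts, more cells of a type cannot be told apart from more RNA per cell.

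Transcription factors of heart development had 18 of 27 genes higher (median 0.09). Of the 27, 4 lay above all 6 libraries (14.8%, against 4.28% of all genes) and 1 below (3.7%, against 6.27%). The 4 became 7 when either Linzhi Tibetan library was left out (25.9%, against 14.0% of all genes without Linzhi Tibetan 1 and 12.3% without Linzhi Tibetan 2). They became 6 (22.2%) without Lhasa White 2 or without Chahua 2, against 5.61% and 10% of all genes, and 9 (33.3%, against 14.2%) without both of those. GATA6, which drives early cardiac genes, lay at 83.9 and 55.2 RPKM in Linzhi Tibetan hearts and 38.5 to 51.4 RPKM (median 41.9) in the others (0.63 ± 0.16). HOPX, a homeodomain protein of differentiating cardiomyocytes, lay at 12.9 and 13.9 RPKM in Linzhi Tibetan hearts and 6.88 to 10.95 RPKM (median 8.44) in the others (0.60 ± 0.17). TBX3, a T-box repressor of the conduction system, lay at 9.11 and 9.45 RPKM in Linzhi Tibetan hearts and 6.30 to 8.48 RPKM in the others (0.27 ± 0.13). Each stood above every other library. MEF2C, the fourth, is Z-linked, at 17.0 and 18.6 RPKM in Linzhi Tibetan hearts and 7.62 to 16.2 RPKM in the others. Against Lhasa White 1 and White Leghorn 2 it differed by 0.40 ± 0.13, GATA6 by 0.58 ± 0.25 and HOPX by 0.70 ± 0.13.

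Energy metabolism gave few separations. Glycolysis genes had 13 of 32 higher and 19 lower (median -0.06), with 3 below all others (9.38%, against 6.27% of all genes). GPI, which converts glucose phosphate to fructose phosphate, lay at 197 and 257 RPKM in Linzhi Tibetan hearts and 280.2 to 389 RPKM in the others (-0.51 ± 0.15). PKM, which makes pyruvate, lay at 153 and 146 RPKM in Linzhi Tibetan hearts and 166 to 236 RPKM in the others (-0.39 ± 0.15). The remaining member of the 3 was PFKFB2, which sets the level of an activator of glycolysis. Fatty acid genes had 15 of 36 higher and 21 lower, also with 3 below all others (8.33%, against 6.27%). Of these, ETFDH and ETFA carry electrons from fatty acid oxidation to the respiratory chain. ETFDH lay at 38.9 and 45.8 RPKM in Linzhi Tibetan, against 47.3 to 61.4 RPKM in the others, and ETFA at 45.0 and 57.2 RPKM in Linzhi Tibetan, against 59.4 to 71.0 RPKM. LPL, the lipase that frees fatty acids from lipoproteins, ran the other way (0.79 ± 0.20). It lay at 153 and 114 RPKM in Linzhi Tibetan hearts and 56.4 to 114 RPKM in the others, Chahua 2 reaching the lower of the pair. LPL is Z-linked, and against Lhasa White 1 and White Leghorn 2 it differed by 0.78. Among antioxidant genes 28 of 40 were lower (median -0.08) and 3 lay below all others (7.5%, against 6.27%). All 3 of these list shares were near that of all genes. Without Lhasa White 2 and Chahua 2 the counts for glycolysis, fatty acid and antioxidant genes were 8 (25%), 7 (19.4%) and 6 (15%). The share of all genes was then 11.7%. After median ratio scaling the counts were 3, 1 and 5 in the same order, against 747 of all 11556 genes. NQO1, a quinone reductase, lay at 2.12 and 1.27 RPKM in Linzhi Tibetan hearts and 2.495 to 7.85 RPKM in the others (-0.93 ± 0.25).

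Markers of several other cell types lay mostly lower in the Linzhi Tibetan hearts, with no gene past the adjusted threshold. Macrophage and leukocyte markers had 16 of 19 tested genes lower, of 40 listed, with a median of -0.30. For 8 of the 19 (42.1%, against 6.27%) both Linzhi Tibetan libraries lay below all 6 others, and for none above. That count was 10 (52.6%) without Linzhi Tibetan 1, Linzhi Tibetan 2 or Chahua 1, against 15.6%, 18.6% and 9.56% of all genes. It was 8 (42.1%) without any other single library, against 6.85% to 9.67% of all genes. Without Lhasa White 2 and Chahua 2 together it was 8 (42.1%, against 11.7%). CSF1R, the receptor that macrophages need to survive, lay at 2.69 and 2.36 RPKM in Linzhi Tibetan hearts and 4.05 to 9.18 RPKM (median 5.16) in the others (-0.86 ± 0.23). CD4, carried by T cells and some macrophages, lay at 0.0750 and 0.207 RPKM in Linzhi Tibetan, on 3 and 9 reads, and at 0.620 to 2.80 RPKM in the others (-1.16 ± 0.23). IRF8, a transcription factor of the macrophage lineage, lay at 4.50 and 4.49 RPKM in Linzhi Tibetan hearts and 5.66 to 7.95 RPKM in the others (-0.45 ± 0.14). Lhasa White 2 was the highest library for all 3, yet Lhasa White 1 and White Leghorn 2 also lay above Linzhi Tibetan. The matched differences were -0.71 ± 0.15 for CSF1R, -1.25 ± 0.17 for CD4 and -0.48 ± 0.13 for IRF8. The summed level of the list was 65.8 and 50.5 RPKM in Linzhi Tibetan hearts and 59.6 to 95.6 RPKM in the others, so the sums overlapped. The part of these cell markers in the other results was not tested.

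Smooth muscle and pericyte markers had 14 of 18 genes lower (median -0.34). Of these, 5 lay below all others (27.8%, against 6.27% of all genes). This count was 4 after median ratio scaling (747 of all 11556 genes) and 3 after quantile normalization (683 of 11556). The median was -0.10 against Lhasa White 1 and White Leghorn 2, with 13 of 18 lower, and -0.11 against the White Leghorn pair. The list mean deviated by -0.20 and -0.22 in Linzhi Tibetan hearts, against 0.37 in Lhasa White 2 and -0.10 to 0.12 in the other 5 libraries. The summed level of 1063 and 1191 RPKM in Linzhi Tibetan hearts overlapped the 892 to 1462 RPKM of the others. CSPG4, the pericyte proteoglycan NG2, lay at 5.92 and 4.63 RPKM in Linzhi Tibetan hearts and 6.91 to 9.19 RPKM in the others (-0.58 ± 0.16). PDGFRB, the receptor that recruits pericytes, lay at 12.04 and 11.7 RPKM in Linzhi Tibetan hearts and 13.4 to 18.4 RPKM in the others (-0.38 ± 0.14). The other 3 were ACTG2, MYLK and SYNPO2. Nerve and Schwann markers had 11 of 12 genes lower (median -0.61), 3 of them below all others (25%, against 6.27% of all genes). Lhasa White 2 and Chahua 2 set much of that distance, since the median was -0.24 without both and -0.25 against Lhasa White 1 and White Leghorn 2. The list mean deviated by -0.72 and -0.45 in Linzhi Tibetan hearts, against 1.34 in Lhasa White 2, 0.70 in Chahua 2 and -0.33 to -0.08 in the other 4 libraries. CHGB, a granule protein of neuroendocrine cells, lay at 11.1 and 28.2 RPKM in Linzhi Tibetan hearts and 38.3 to 172 RPKM (median 59.8) in the others (-1.84 ± 0.56).

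For matrix genes, Lhasa White 2 lay far above the other libraries, and Linzhi Tibetan also lay below Chahua. Of 45 genes tested 38 were lower (median -0.38), yet against Lhasa White 1 and White Leghorn 2 the median was 0.00, with 24 higher and 21 lower. By breed, 42 were lower against Lhasa White (median -0.67), 39 against Chahua (-0.31) and 21 against White Leghorn (0.03). Without Lhasa White 2 and Chahua 2 the pooled median was -0.10. The list mean deviated by -0.10 and -0.36 in Linzhi Tibetan hearts, against 1.08 in Lhasa White 2 and -0.34 to 0.08 in the remaining 5 libraries. A set of 5 genes lay below all others (11.1%, against 6.27% of all genes). The 5 became 15 without Linzhi Tibetan 1 (33.3%, against 15.6%) and 8 without Lhasa White 2 and Chahua 2 (17.8%, against 11.7%). COL5A2, a fibrillar collagen chain, lay at 74.8 and 67.6 RPKM in Linzhi Tibetan hearts and 82.2 to 167 RPKM (median 92.5) in the others (-0.47 ± 0.20). LOXL2, a collagen crosslinking enzyme, lay at 6.31 and 5.74 RPKM in Linzhi Tibetan, against 7.51 to 14.5 RPKM in the others (-0.62 ± 0.20). SERPINH1, the collagen chaperone described above, was counted with the chaperones and not in this list. Against Lhasa White 1 and White Leghorn 2 it differed by -0.68 ± 0.22.

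Red cell transcripts differed between the 2 Linzhi Tibetan hearts themselves. The mean deviation of 20 erythroid genes was -0.85 in Linzhi Tibetan 1 and 0.47 in Linzhi Tibetan 2, against -0.54 to 0.55 in the others. Globin reads made up 0.521% and 1.94% of the mapped reads in the Linzhi Tibetan pair and 0.697% to 2.18% in the others. The list median of -0.25 became 0.55 without Linzhi Tibetan 1. TFRC, the transferrin receptor, lay at 25.4 and 54.0 RPKM in Linzhi Tibetan hearts and 50.6 to 87.8 RPKM in the others (-0.74 ± 0.30). The part of red cell content in the other results was not tested.

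GBP, an interferon-induced GTPase, divided the breeds rather than setting Linzhi Tibetan apart. It lay at 2.65 and 4.43 RPKM in Linzhi Tibetan, against 0.901 and 0.895 in the Lhasa White pair, 18.8 and 15.3 in the Chahua pair and 10.6 and 9.17 in the White Leghorn pair. Linzhi Tibetan stood between Lhasa White and the other 2 breeds, with differences of 1.23 ± 0.23 from Lhasa White, -2.01 ± 0.23 from Chahua and -1.29 ± 0.23 from White Leghorn. DMB2, a class II antigen loading chain, lay at 0.678 and 0.674 RPKM in Linzhi Tibetan hearts and 1.03 to 2.80 RPKM in the others (-0.86 ± 0.18). Class II genes have close relatives in the chicken MHC, among which reads could have been split.

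Z-linked genes were higher in Linzhi Tibetan against the pooled breeds, and this largely went with W status. Of 457 Z-linked genes tested 361 were higher and 96 lower, with a median of 0.30 against -0.03 for 9190 autosomal genes. Both Linzhi Tibetan libraries lay above all 6 others for 59 (12.9%, against 3.70% of autosomal genes), and for 124 without Linzhi Tibetan 1 (27.1%, against 14.0% of all genes), 132 without Linzhi Tibetan 2 (28.9%, against 12.3%) and 107 without Chahua 2 (23.4%, against 10%). Against Lhasa White 1 and White Leghorn 2 the Z-linked median was 0.04, with 258 higher and 199 lower, beside -0.01 for autosomal genes. With W status as a covariate of the fit the Z-linked median was 0.03.

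XPA, which recognises ultraviolet damage in DNA for nucleotide excision repair, shows the pattern. It lay at 92.2 and 87.8 RPKM in Linzhi Tibetan, at 62.7 in Lhasa White 1 and 80.6 in White Leghorn 2, against 39.6 in Lhasa White 2, 33.6 and 35.1 in the Chahua pair and 48.3 in White Leghorn 1, the libraries with W-linked transcripts. The pooled difference was 0.91 ± 0.23 and the matched one 0.34 ± 0.15. ERCC8, a repair factor at stalled transcription, is Z-linked too, with a pooled difference of 0.72 ± 0.26 and a matched one of 0.37 ± 0.13. Of the ribosomal lists, RPS23 and MRPL17 are Z-linked as well. RPS23 differed by 0.82 ± 0.27 pooled and 0.24 ± 0.11 matched, and MRPL17 by 0.81 ± 0.29 pooled and 0.29 ± 0.10 matched. The repair list as a whole had 14 of 28 genes higher and 14 lower. Of the 28, 5 lay above all others (17.9%, against 4.28% of all genes) and 1 below (3.57%, against 6.27%). XPA and ERCC8 are 2 of those 5. The same list had 10 genes higher and 18 lower against Lhasa White 1 and White Leghorn 2 (median -0.04). CRY1, a cryptochrome of the clock and a relative of photolyases, was the one below, at 19.3 and 21.4 RPKM in Linzhi Tibetan hearts and 23.4 to 31.9 RPKM in the others (-0.37 ± 0.15).

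**Figure D4:**
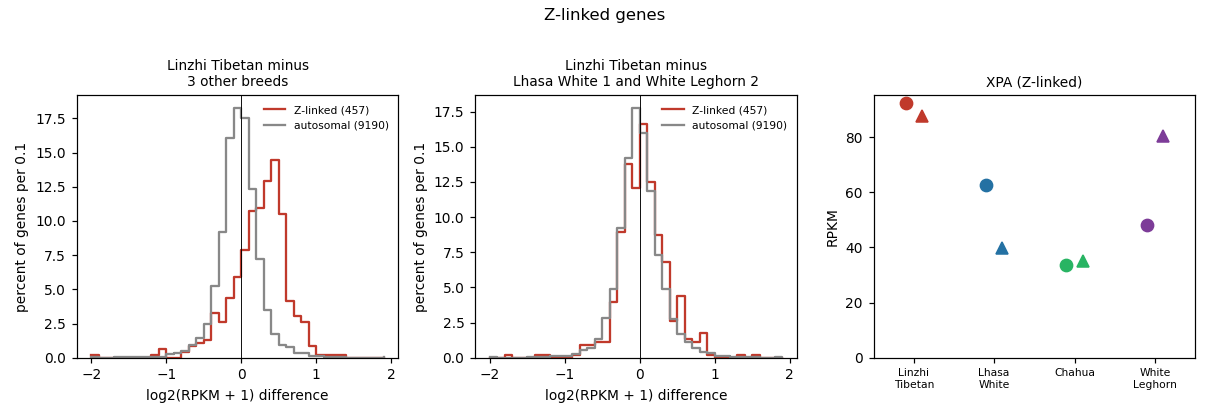
Percent of Z-linked and autosomal genes per 0.1 of log2(RPKM + 1) difference, for Linzhi Tibetan minus the 3 other breeds (left) and minus Lhasa White 1 and White Leghorn 2 (middle; values past 2 are put in the end bins), and XPA in RPKM by library (right; circle, replicate 1; triangle, replicate 2). The Z-linked curve, with a median of 0.30, lies to the right of the autosomal one on the left, and both lie near 0 in the middle, where the Z-linked median is 0.04.

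Against Lhasa White 1 and White Leghorn 2 the 4 libraries gave a fit with 2 residual degrees of freedom, whose error includes the difference between those breeds. No gene was called (0% higher and 0% lower), and 637 genes were higher (5.51%) and 576 lower (4.98%) at an unadjusted p below 0.05. Both Linzhi Tibetan libraries lay above both others for 2426 genes (21.0%) and below for 2657 (23.0%). Among genes with a symbol, IL17RD was the one named for its small p in both contrasts. ENSGALG00000027839, described above, has no symbol and is outside that rule. DUSP3, a phosphatase of MAP kinases, lay at 26.5 and 29.2 RPKM in Linzhi Tibetan hearts, against 13.7 in Lhasa White 1 and 12.8 in White Leghorn 2 (1.02 ± 0.12), but Lhasa White 2, at 28.2 RPKM, overlapped the pair. EGFL6, a secreted protein with EGF repeats, lay at 2.99 and 3.02 RPKM in Linzhi Tibetan hearts, against 10.2 in Lhasa White 1 and 8.30 in White Leghorn 2 (-1.35 ± 0.15), with Chahua 1 just above the pair at 3.03. The other 7 genes named by this contrast are short rows of small nucleolar and microRNA precursors, most with few reads. Of them snoZ40 had 26 and 31 reads in Linzhi Tibetan and 9 in both Lhasa White 1 and White Leghorn 2, and SNORD83 had 0 reads in Linzhi Tibetan, against 5 and 4. Cell cycle genes had 65 of 83 lower in this matched set (median -0.18). Of the 83, 37 lay below both others, against 23.0% of all genes, and 8 above, against 21.0%. Against the pooled breeds 52 of 83 were lower (median -0.03), with 4 above all 6 libraries (4.82%, against 4.28%) and 1 below (1.2%, against 6.27%). The direction differed by breed, with 71 lower against White Leghorn (median -0.22), 50 lower against Lhasa White (-0.04) and 64 higher against Chahua (0.15). The Linzhi Tibetan pair was split, with a list mean deviation of -0.14 in Linzhi Tibetan 1 and 0.09 in Linzhi Tibetan 2, against 0.09 in Lhasa White 1 and 0.16 in White Leghorn 2. The sign of the pooled median turned without Linzhi Tibetan 1, without Chahua 1 and with voom on recovered reads.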

How the data were processed

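Messenger RNA was sequenced from 16-day embryonic hearts of 4 breeds, 2 libraries each. Per the labels' protocols, RNA was isolated with TRIzol and prepared with an mRNA kit of Illumina. Values of 15873 Ensembl genes were deposited as RPKM, per the file headers, and 2730 have no symbol. The submitters' processing notes name BWA. How the authors counted, with which gene models, filters or strand setting and on which genome build, is not given in the sources here, so no coordinates are printed. Reads of paralogs, overlapping genes and antisense partners cannot be told apart. The values of all libraries were whole multiples of what 1 read is worth for 99.994% of genes (tolerance 0.05 reads), which gave the library totals and whole reads. With shifted totals this held for 1 of 225 control genes. These had 5 reads or more in every library, so the control does not cover genes with fewer reads. Where several gene lengths gave whole reads the shortest was kept, so the reads of low genes are the fewest that their values allow.

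The genes tested had 1 RPKM or more in at least 2 of 8 libraries, on log2(RPKM + 1), whose differences understate changes of low genes. There were 11556 such genes, and 9 passed through the Linzhi Tibetan libraries alone. A model with 1 mean per breed was fitted in limma 3.58.1 (R 4.3.3), using moderated variances with a trend (4 residual degrees of freedom). The contrast was Linzhi Tibetan minus the mean of the 3 other breeds. Differences are given with their standard error. A second fit took the 2 Linzhi Tibetan libraries against Lhasa White 1 and White Leghorn 2. Benjamini-Hochberg adjustment of p-values ran over all genes tested, with a threshold of 0.05. Chromosomes were looked up by symbol in the RefSeq table of GRCg7b for 9655 tested genes. The procedure was checked on simulated data. Python 3.11.15, NumPy 2.4.6, pandas 2.3.3 and matplotlib 3.10.9 served for the rest.

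The comparison, the 39 gene lists and the rule for named genes were chosen with earlier results of these data known. In each direction the rule takes the 10 genes of smallest p that have a symbol and whose Linzhi Tibetan values lie outside the range of the 6 others, and likewise 5 against Lhasa White 1 and White Leghorn 2. It adds EPAS1, HIF1A, EGLN1, VEGFA, the W-linked transcripts and up to 4 members per list. FLT4, CCT5, HSPD1, HSPH1, CALR, HSPB3 and other list members named for lying outside that range were chosen after their values were seen. Alternatives covered the pseudocount, the filter, scaling, voom on recovered reads, a replicate block, W status as a covariate, 2 groups and leaving out libraries.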

Additional observations from a re-analysis of the deposited data

Results flagged for a closer look

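Among the 6 libraries of the other breeds, 1 value stood far from the other 5 for 10 of 100 genes examined, 6 times in Lhasa White 2 and 4 times in Chahua 2. Chance alone picks out about 1 in 20 such groups. These libraries also have the highest mean deviation over the atrial markers, whose part in these values was not tested. In Lhasa White 2, ACTG2 lay at 129.5 RPKM, LOXL1 at 118 RPKM, LOXL2 at 14.5 RPKM, COL5A2 at 167 RPKM, CSF1R at 9.18 RPKM and snoZ40 at 56.8 RPKM. In Chahua 2, PECAM1 lay at 138 RPKM, CHGB at 172 RPKM, PPAR at 14.1 RPKM and ENSGALG00000027839 at 0.174 RPKM. ACTG2, LOXL1, LOXL2, COL5A2, CSF1R and CHGB lay below all other libraries in the Linzhi Tibetan hearts, so the distance to the nearest library there does not rest on that high value.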

How the results depend on the processing

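The tests as reported gave 0 calls in every contrast, and most alternatives did too. For Linzhi Tibetan against the 3 other breeds, 1 gene was called higher with 2 groups and 1 with voom on recovered reads. Without a filter on low values 11 were called higher and 1 lower against the 3 breeds, 10 and 2 against Lhasa White, 11 and 2 against Chahua, and 11 and 1 against White Leghorn. Against Lhasa White, leaving out 1 library gave 0 to 5 genes higher and 0 to 48 lower. The 5 and 48 came without Lhasa White 1, and 2 lower without Lhasa White 2, which leaves a lone Lhasa White library assumed to vary like the other groups. The cause was not tested. The fit with a replicate block gave 0 calls in each contrast. Correlations of the deviations of same-numbered libraries ran from -0.332 to 0.170. These cannot decide if the numbers pair the libraries, since W status also differs within the Lhasa White and White Leghorn pairs. The count of 495 genes above all others was 1636, and that of 724 below was 1357, without Lhasa White 2 and Chahua 2, an alternative chosen after seeing the data. Leaving out 1 library gave 567 to 1617 above (1157 without Chahua 2, 1617 and 1426 without Linzhi Tibetan 1 and 2) and 792 to 2154 below (1105 and 1118 without Chahua 1 and 2, 1799 and 2154 without Linzhi Tibetan 1 and 2), since fewer libraries are easier to separate. Differences against the 3 breeds changed sign for 5 named genes, none of them called. Leaving out 1 library gave HIF1A -0.1146 to 0.1523, EGLN1 -0.0173 to 0.1809, SLC4A1 -1.3993 to 0.1027, ADARB1 -0.0985 to 0.3984 and PPAR -0.2603 to 0.3495, the sign turning without Linzhi Tibetan 1 for all 5, without Chahua 1 for HIF1A and PPAR, without Lhasa White 1 for HIF1A and without Lhasa White 2 for PPAR. With W status as a covariate PPAR was -0.1403. With 2 libraries a breed, the spread within breeds limits every test.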
